A study of Arabidopsis thaliana with 6 samples.

Results

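Of the subunits of the 26S proteasome, 1 could be followed by name in this comparison, RPN12a (locus AT1G64520) of the 19S regulatory particle. Members were sought among the probe sets for which the array annotation names 1 gene, by a symbol of PAA to PAG or PBA to PBG followed by a digit for the 20S core, or of RPN or RPT followed by a digit for the 19S particle. Of 13286 genes with such a probe set, 1 had a matching symbol, with 0 in the core and 1 in the particle. The gene table used for names holds 37 proteasome symbols of this form, 21 for the core and 16 for the particle, and probe sets for the other 36 are not analysed here. The gene identifiers of those 36 are not listed in the annotation for any probe set. Other probe sets are listed under a locus code with no gene name. Any subunits among those are outside the symbol rule and were not used. Another 13 symbols in that table have the same form but no name there that mentions the proteasome, and 0 of them were listed for the array. They were taken to be of other families, such as the poly(A)-binding proteins. The core could therefore not be set against the regulatory particle, and the values below describe RPN12a, not the proteasome.

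The 26S proteasome degrades proteins that carry ubiquitin chains. Its 20S core is a barrel of alpha and beta subunits with the proteolytic sites inside, and the 19S particle on its ends binds the ubiquitylated protein, removes the ubiquitin, unfolds the protein and feeds it into the core. The base of the 19S particle holds the RPT ATPases and the lid holds RPN subunits without ATPase activity. RPN12 is a lid subunit that, in yeast, joins last and allows the lid to attach to the base. Arabidopsis has a pair of genes for it, RPN12a and RPN12b, and plants with a mutant RPN12a are known for altered responses to cytokinin.

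The samples were Arabidopsis root protoplasts from roots given nitrate, transfected with a plasmid that makes HRS1 (AtNIGT1), a transcription factor, fused to the glucocorticoid receptor under the CaMV 35S promoter, and sorted by red fluorescent protein. All samples had nitrate and 35 µM cycloheximide, which blocks translation. In 3 samples 10 µM dexamethasone (DEX), which lets the fusion protein enter the nucleus, was added (+DEX), and 3 samples had none (−DEX). Protoplasts given DEX without the HRS1 fusion were not among the samples analysed here. The RNA of each was measured on 1 ATH1 array, and since no label ties the replicates to separate cultures, the p-values reflect the spread among these 6 samples, whether technical or biological.

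The arrays were scaled to a common median, and 22746 probe sets were tested. The array of −DEX replicate 1 stood apart, with a mean Spearman correlation of 0.708 with the other arrays, against 0.777 to 0.822 for the others. Of the cell type markers listed for the check of the tissue, 3 of 13 had a named probe set. For 1 more, a marker of the root cortex, a probe set is listed under a locus code without a name and was not used. EXPA7, an expansin of root hairs, was dimmer on every array than the background, set at the 95th percentile of 27 probe sets for Bacillus control RNA. The leaf gene RCA, rubisco activase, exceeded that background on 2 of 3 arrays with DEX and 1 of 3 without, and FMA (FAMA), a guard cell regulator, on 2 of 3 with DEX and 0 of 3 without. That background differed between arrays, at a log2 of 5.08 to 5.75 with DEX and 5.36 to 6.60 without. Mean log2 intensity was 5.66 with DEX and 5.58 without for RCA (limma adjusted p = 0.994). For FMA it was 5.67 with DEX and 3.69 without (limma adjusted p = 0.79). The root origin could thus not be checked from the named markers. With bulk RNA, fewer cells of a type and less RNA per cell cannot be told apart.

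RPN12a was measured well above background in both groups. As deposited, its intensity read 2110, 2570 and 4406 on the +DEX arrays of replicates 1, 2 and 3, against 4685, 2809 and 1731 on the −DEX arrays of replicates 1, 2 and 3. After scaling, its log2 intensity was 11.07, 11.12 and 12.03 on the +DEX arrays, against 12.36, 11.74 and 10.63 on the −DEX arrays. The groups overlapped throughout: the highest and the lowest of the 6 values were both from −DEX arrays, and the 3 +DEX values lay between them. On every array the level was between 5.14 and 6.28 log2 units above the background percentile of that array.

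**Figure D1:**
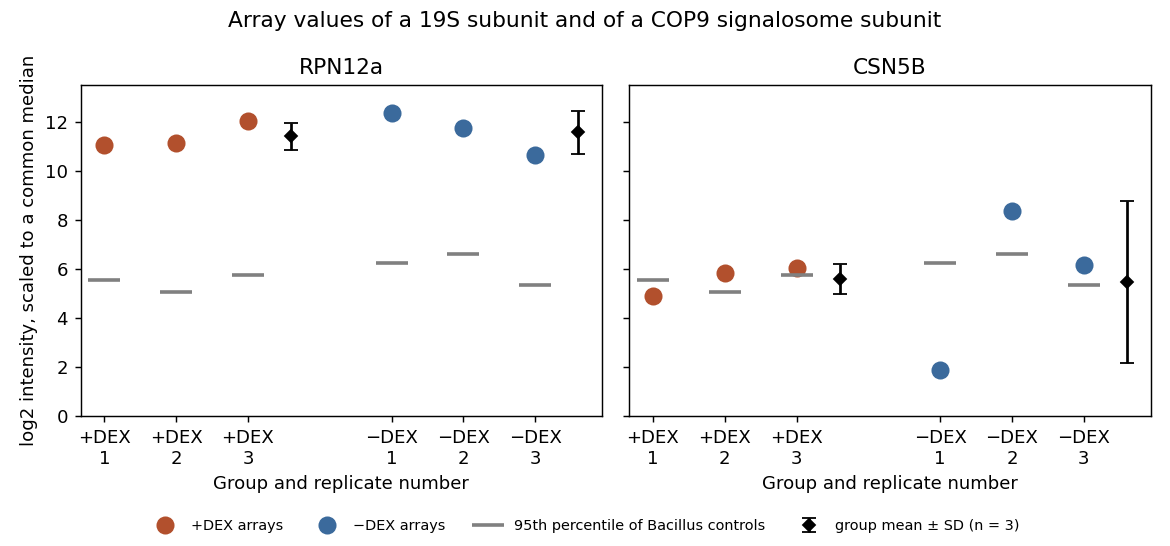
The vertical axis gives the log2 intensity after scaling to a common median, for RPN12a in the left panel and CSN5B in the right, with 1 point per array, the mean ± SD of each group (n = 3) as a diamond and the 95th percentile of the Bacillus controls of each array as a grey dash. RPN12a lies far above the dashes on all 6 arrays with overlapping groups, while CSN5B reaches at most 1.76 log2 units above them and lies under them on 1 array of each group.

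Setting +DEX against −DEX asks whether a transcript differs with DEX in cells that carry the HRS1 fusion and were given cycloheximide. Without samples given DEX but lacking the fusion, an effect of HRS1 cannot be told apart from one of DEX itself. Nuclear entry and the block of translation were not measured here. RPN12a averaged 11.40 ± 0.54 on the +DEX arrays and 11.58 ± 0.87 on the −DEX arrays (log2, SD, n = 3 each). The log2 difference was −0.17 with a standard error of 0.50, smaller than the SD of either group, and limma gave it an adjusted p of 0.963 across the whole table. An exact permutation test of the 6 arrays, two-sided, gave p = 0.9, where 3 arrays against 3 cannot give less than 0.1. The 95% interval of the difference ran from −1.24 to 0.90, that is, from 2.36-fold lower to 1.86-fold higher with DEX. No difference was detected, and a change of any size within that interval remains possible with this number of arrays.

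Against the whole table, limma called 0.119% of the tested probe sets at an adjusted p under 0.05, all of them lower with DEX, and RPN12a was not among them, nor was its unadjusted limma p of 0.737 among the 6.59% of probe sets under 0.05. That share of calls is itself unsteady: the 27 probe sets behind it became 0 without −DEX replicate 2, 12 without −DEX replicate 1, 46 without −DEX replicate 3, 3 without +DEX replicate 1 and 4 without +DEX replicate 3, and 0 with a floor at a log2 of 5 or without the variance trend. The groups were free of overlap in 12.5% of probe sets, and those of RPN12a overlapped. A smaller p than that of RPN12a was found for 76.6% of probe sets, and a lower difference for 47.5%. All probe sets together had a median difference of −0.10, and relative to it RPN12a stood at −0.07, as the plot of all differences shows.

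**Figure D2:**
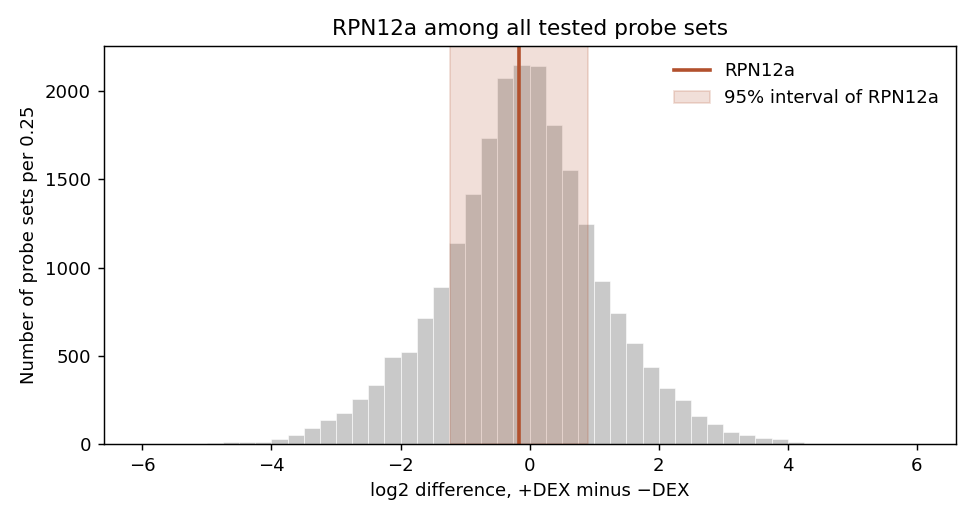
The bars count the tested probe sets by their log2 difference, +DEX minus −DEX, in steps of 0.25, and the line and shaded band mark RPN12a and its 95% interval. RPN12a, at −0.17, lies near the middle of all probe sets.

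Among replicates, the highest and lowest RPN12a values differed by 1.94-fold among the +DEX arrays and by 3.31-fold among the −DEX arrays. The residual SD of RPN12a was 0.73 log2 units, against a median of 0.81 among probe sets brighter than the median level, of which 42.6% had a smaller one. The sign of the small difference was kept in 5 of the 6 fits with 1 array left out, and it depended on the scaling. Without −DEX replicate 1, where RPN12a was highest and which stood apart from the other arrays, the difference was 0.22 (adjusted p = 0.961). Without −DEX replicate 3, where it was lowest, the difference was −0.64, and without +DEX replicate 3 it was −0.48 (limma adjusted p = 0.612 and 0.96). Without +DEX replicate 1, +DEX replicate 2 or −DEX replicate 2 it was −0.0021, −0.028 and −0.091. It was also positive after quantile normalization (0.13) and as deposited (0.023), but −0.28 with scaling to the 75th percentile. Its interval held 0 in every setting run.

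**Figure D3:**
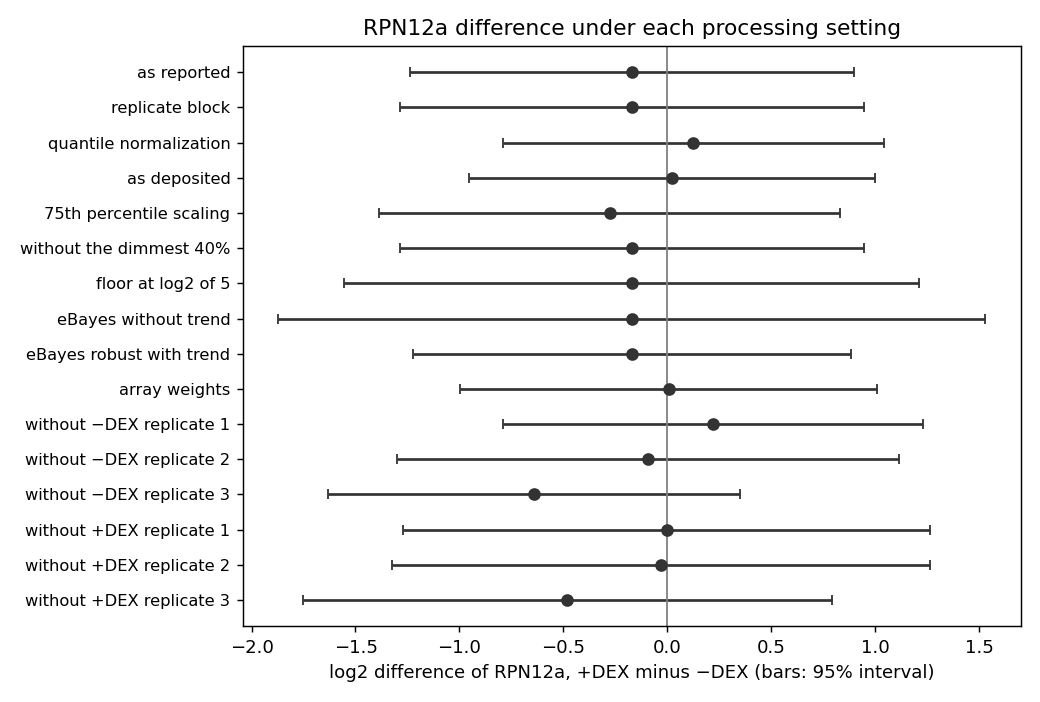
Each point is the log2 difference of RPN12a, +DEX minus −DEX, under 1 processing setting or with 1 array left out, and each bar its 95% interval. The points lie on both sides of 0, from −0.64 to 0.22, and all the intervals include 0.

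Of a list of 42 other loci of the ubiquitin-proteasome pathway (caps and assembly factors, ubiquitin shuttles, deubiquitinases, ubiquitin, activating enzymes and the COP9 signalosome), 1 had a probe set with a named gene. That gene was CSN5B, a form of the COP9 signalosome subunit that removes the ubiquitin-like protein RUB from cullins, in a complex related to the lid that holds RPN12. A further 4 loci of the list appear in the annotation under a locus code without a name and were not used. The log2 intensity of CSN5B was 4.92, 5.84 and 6.03 on the +DEX arrays, against 1.89, 8.36 and 6.16 on the −DEX arrays. It lay above the background percentile on 2 of 3 arrays in each group, and the −DEX values enclosed the +DEX values. Its difference was 0.13 ± 1.49 (SE; limma adjusted p = 0.992), with an interval from −3.06 to 3.32. The difference turned to −1.66 without −DEX replicate 1, where CSN5B lay far under the background percentile.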

How the data were processed

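The values used were the authors' deposited intensity values, linear, with 1 per probe set on each array. TRIzol RNA was biotin-labelled by a 3′ IVT kit, per the labels' protocols; how probes were summarised is not given in the sources. All 6 columns share a 2% trimmed mean of 500. The arrays were brought to equal medians over 22746 probe sets (64 Affymetrix controls left out), floored at 1 and put on a log2 scale. limma 3.58.1 in R 4.3.3 fitted the group as the only term, with eBayes and a mean-variance trend; two-sided p-values were adjusted by Benjamini-Hochberg over all probe sets, at 0.05. Names came from the array annotation and the TAIR10.1 gene table; HRS1 itself is not named there. The rule for named genes took every proteasome member and, of the pathway list, up to 4 genes with the smallest p. The members and lists were chosen with earlier results of these data known. The fit was tested on simulated data. The arrays' number limits the precision. Same-numbered arrays deviated from their group means with correlations of 0.025, −0.0051 and 0.014, so the numbers were not taken as pairs. Alternatives covered the replicate block, scaling, filter, floor, variance model, array weights, threshold and each array left out.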

Additional observations from a re-analysis of the deposited data

How the results depend on the processing

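RPN12a was not called under any of the 9 settings of its fit, at a threshold of 0.10, or with any of the 6 arrays left out. Its difference was −0.17 as reported and −0.17 with the replicate block, which changed no call for it. It turned to 0.13 with quantile normalization, 0.023 as deposited and 0.0079 with array weights, and ranged from −0.64 to 0.22 with single arrays left out, the positive value without −DEX replicate 1. Taken relative to the median of all probe sets it was −0.07 as reported and as deposited and 0.12 after quantile normalization. CSN5B, at 0.13 as reported, turned to −0.88 with a floor at a log2 of 5, −0.40 with array weights and, with single arrays left out, ranged from −1.66 to 1.57, with −0.084 without +DEX replicate 3. Over all probe sets, 27 were lower with DEX as reported, 33 with the replicate block, 0 with the floor and 0 without the variance trend, and 0 to 46 with single arrays left out (0 without −DEX replicate 2, 12 without −DEX replicate 1, 46 without −DEX replicate 3, 3 without +DEX replicate 1, 4 without +DEX replicate 3); 0 were higher in any of these. The cause was not tested. Medians for the core, and the core set against the particle, were not run for lack of core members, and the median of the particle is the value of RPN12a. RPN12a has 1 probe set and the symbol rule found no gene of another family, so the planned mean over probe sets and the wider set of symbols equal the reported values.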
